A study of Phalaenopsis amabilis with 15 samples.

Results

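The comparison described here set leaves of the moth orchid Phalaenopsis after 40 days in short days against leaves taken before any treatment. It used 6 of the 15 libraries in the series, 3 in each group, chosen by their labels. The plants are labelled Phalaenopsis amabilis, with no further genotype given, and came from a stock of 120. The untreated group, CK, was sampled on day 0 from plants given 12 h light, with 28 °C days and 25 °C nights. The short-day group, SD_40d, was sampled on day 40 under 8 h light, with 25 °C days and 18 °C nights. Photoperiod, temperature and the age of the plants thus all changed together between the groups and cannot be told apart. Each library was made from topmost young leaves of 3 plants, and p-values measure only the spread between these pools. No hour of harvest is stated, so a change of level and a shift of daily timing cannot be told apart for genes with a daily rhythm. Likewise, in whole leaves fewer cells of a type and less RNA per cell cannot be told apart.

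Plants measure day length by comparing an internal circadian clock with light signals from phytochromes and cryptochromes. In Arabidopsis and rice, this comparison sets the level of FT-type proteins, mobile signals made in leaves that start flowering at the shoot tip. Phalaenopsis is known for forming its flower spike after weeks at cool temperatures, and its leaves fix carbon at night by crassulacean acid metabolism, CAM. Gene names below are the best protein matches in the deposited table, whose loci are those of the related species Phalaenopsis equestris, so a name is a likeness and not a tested function.

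The 6 libraries held 11748364 to 14637388 counted reads. Leaf markers were abundant in both groups: the small subunit of Rubisco, RBCS (LOC110030192), stood at 1820 to 2550 CPM in CK and at 895 to 1480 CPM in SD_40d, where CPM is the read count set to a common library size by TMM scaling. The flower and shoot tip genes FLORICAULA/LEAFY (LOC110037805) and WUSCHEL (LOC110036538) had no read in any of the 6 libraries, which allows up to 0.0808 CPM over CK and 0.0785 CPM over SD_40d. So had 17 of 53 MADS-box and LEAFY genes and 13 of 30 meristem markers, against 2121 of all 21144 loci. Other members were read. MADS16 (LOC110024739) stood at 10.4 to 16.4 CPM in CK and 27.3 to 29.0 CPM in SD_40d, and MADS2 (LOC110019973) at 17.6 to 21.3 and 15.4 to 22.5 CPM. Absence of flower or shoot tip RNA is thus not shown. Replicate 1 of SD_40d stood apart from its group. Its log2 CPM correlated across genes at 0.948 and 0.936 with replicates 2 and 3, which correlated at 0.983 with each other. On the first principal component of all 15 libraries (44.6% of the variance) replicate 1 lay at -16.9 and replicates 2 and 3 at -77.6 and -89.3, while the CK libraries lay between -22.1 and 14.5. The second component (24%) set all SD_40d libraries apart from CK. There replicate 1 lay at -13.5, replicates 2 and 3 at -41.1 and -33.4, and the CK libraries between 75.5 and 81.1.

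Of 16700 genes tested with edgeR, 6399 differed between SD_40d and CK at an adjusted p under 0.05 (38.3%), 3142 of them higher in SD_40d (18.8%) and 3257 lower (19.5%). The median log2 fold change of all tested genes was -0.05. Among the calls, 2514 (15.1% of genes tested) changed at least 2-fold, and falls outnumbered rises there, with 1576 (9.44%) against 938 (5.62%). Of the 3142 rises, SD_40d replicate 1 was not above the CK range for 270, replicate 2 for 8 and replicate 3 for 17. Of the 6399 calls, 3926 (61.4%) also passed, in the same direction, whichever of the 6 libraries was left out. With 1 library left out, falls over all genes numbered 2206 (without SD_40d replicate 2) to 4409 (without SD_40d replicate 1). Rises numbered 2323 to 3401 in the same 2 fits. List counts from fits with a library left out, given below, are to be read beside these shifts over all genes. The plot of gene lists shows that the share of members called ran in both directions, and each list below is set against those background shares of 18.8% and 19.5%.

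**Figure D1:**
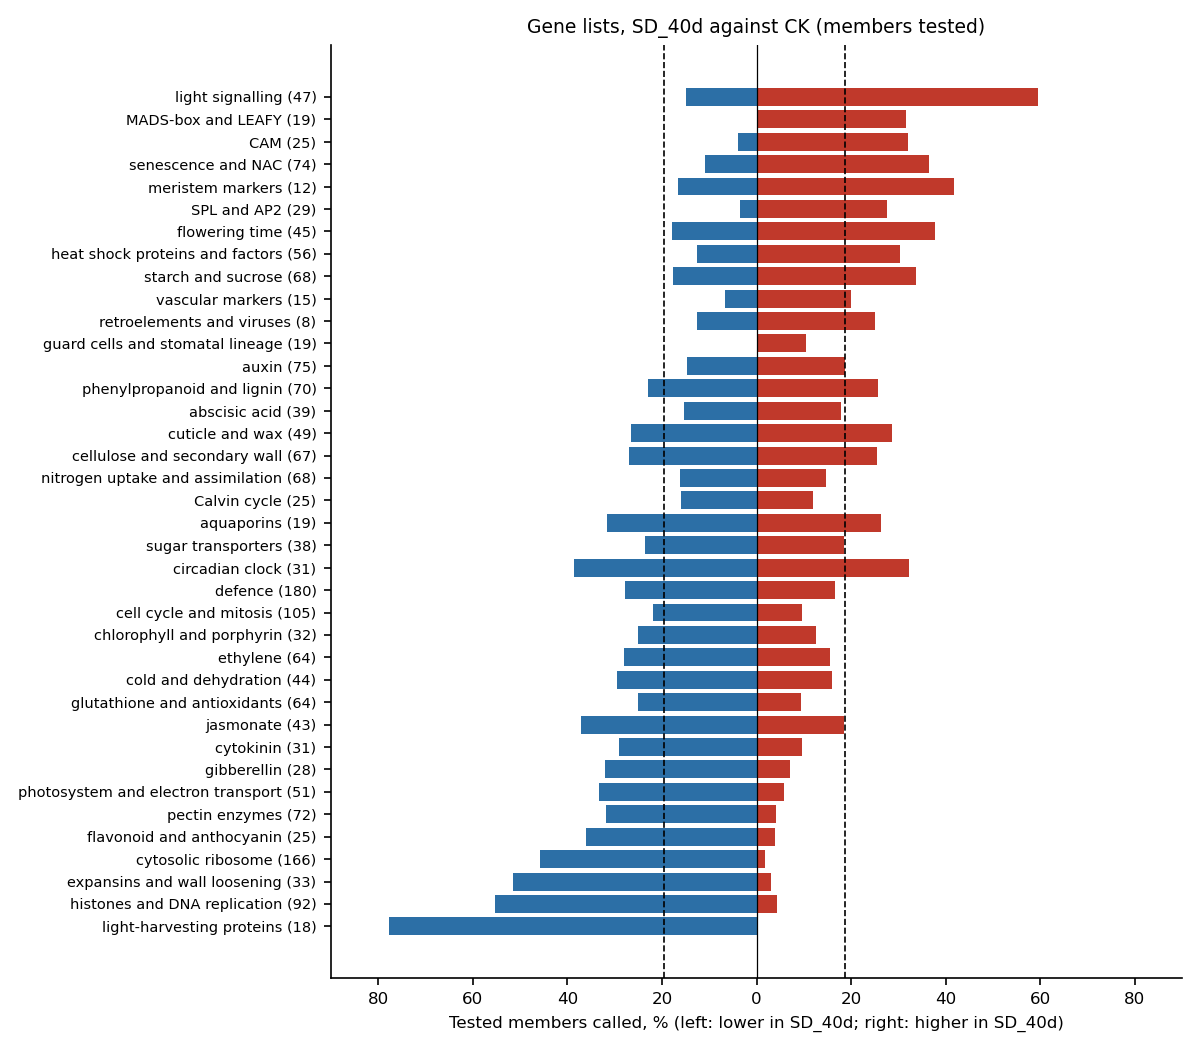
Share of the tested members of each gene list that were called higher (right, red) or lower (left, blue) in SD_40d than in CK, in percent, with the number of members tested in brackets. Dashed lines mark the shares over all 16700 genes, 18.8% higher and 19.5% lower. Light signalling reached furthest to the right (59.6% higher), and light-harvesting proteins furthest to the left (77.8% lower).

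Circadian clock genes changed in both directions. Of 31 clock genes tested, 10 rose, 12 fell and 9 were not called, and the median log2 fold change was 0.00. Most of the rises were MYB factors of the LHY and REVEILLE family, which act around dawn in Arabidopsis, and the falls included the afternoon and evening genes GIGANTEA, an Adagio-like gene, BOA and pseudo-response regulators. For the 22 clock genes called, no SD_40d library lay within the CK range, though a call itself favours such separation. Over all 16700 genes tested, the groups did not overlap for 7803 (46.7%).

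LHY (LOC110025280), a MYB repressor at the core of the Arabidopsis clock, read 90.9, 48.7 and 68.4 CPM in CK and 1150, 2360 and 2580 CPM in SD_40d. All 3 short-day libraries were above every CK library, and the rise was 4.87 ± 0.35 (log2 fold change ± standard error, n = 3 per group, edgeR adjusted p = 1.08e-06). A second LHY locus (LOC110023014) rose less, by 1.45 ± 0.12. REVEILLE 1 (LOC110020906), a relative that links the clock to auxin in Arabidopsis, went from 2.28, 2.39 and 2.05 CPM to 58.2, 62.2 and 55.2 CPM. Its replicates lay closer together than those of LHY, and it rose by 4.70 ± 0.22 (edgeR adjusted p = 5.02e-08). REVEILLE 7 (LOC110021130) rose from 1.06, 0.411 and 1.02 CPM to 61.6, 41.3 and 21.9 CPM, a change of 5.63 ± 0.52. REVEILLE 8 (LOC110032054), which activates evening genes in Arabidopsis, rose by 3.35 ± 0.23, and REVEILLE 5 (LOC110038163) by 2.11 ± 0.11. LNK1 (LOC110035464), a coactivator that works with REVEILLE proteins in Arabidopsis, read 9.70, 6.50 and 9.44 CPM in CK. It read 155, 296 and 253 CPM in SD_40d, and rose by 4.78 ± 0.32.

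GIGANTEA (LOC110019219; scaffold NW_018164496.1, 1940442 to 1961046), which in Arabidopsis joins an FKF1 photoreceptor to promote flowering in long days, fell 20.1-fold. It read 639, 644 and 601 CPM in CK and 13.2, 42.8 and 37.9 CPM in SD_40d, without overlap, and changed by -4.33 ± 0.36 (edgeR adjusted p = 4.45e-06). The Adagio-like protein 3 gene (LOC110037462), of the family of blue-light receptors that holds FKF1, read 218, 262 and 192 CPM in CK. It read 1.82, 7.13 and 8.41 CPM in SD_40d and fell by 5.28 ± 0.42 on the log2 scale, the largest fall of the clock list. BOA (LOC110022918), an evening GARP factor related to LUX, fell by 3.57 ± 0.32, and the ELF4-like gene EFL4 (LOC110021895) by 2.18 ± 0.38. Without SD_40d replicate 1 the EFL4 change was -2.77. Exceptions to this order were RVE7L (LOC110021779) and LNK2 (LOC110028431), of the dawn families, which fell by 1.85 ± 0.28 and 1.81 ± 0.35, and an ELF4-like EFL3 locus (LOC110032747), which rose by 2.05 ± 0.46. Among the pseudo-response regulators, repressors of the dawn genes, PRR73 (LOC110039462) read 518, 485 and 439 CPM in CK and 91.7, 162 and 150 CPM in SD_40d. PRR73 fell by 1.84 ± 0.20 and one PRR95 locus (LOC110019887) by 1.66 ± 0.50, a call that was lost when only the 6 libraries were fitted (-1.62, adjusted p = 0.0793). The other PRR95 locus (LOC110033028) read 59.0, 48.5 and 35.2 CPM in CK and 9.62, 97.2 and 130 CPM in SD_40d. Replicate 1 lay below and replicates 2 and 3 above all CK libraries there, and the gene was not called (adjusted p = 0.353), though without replicate 1 it rose by 1.23 (adjusted p = 0.00542).

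**Figure D2:**
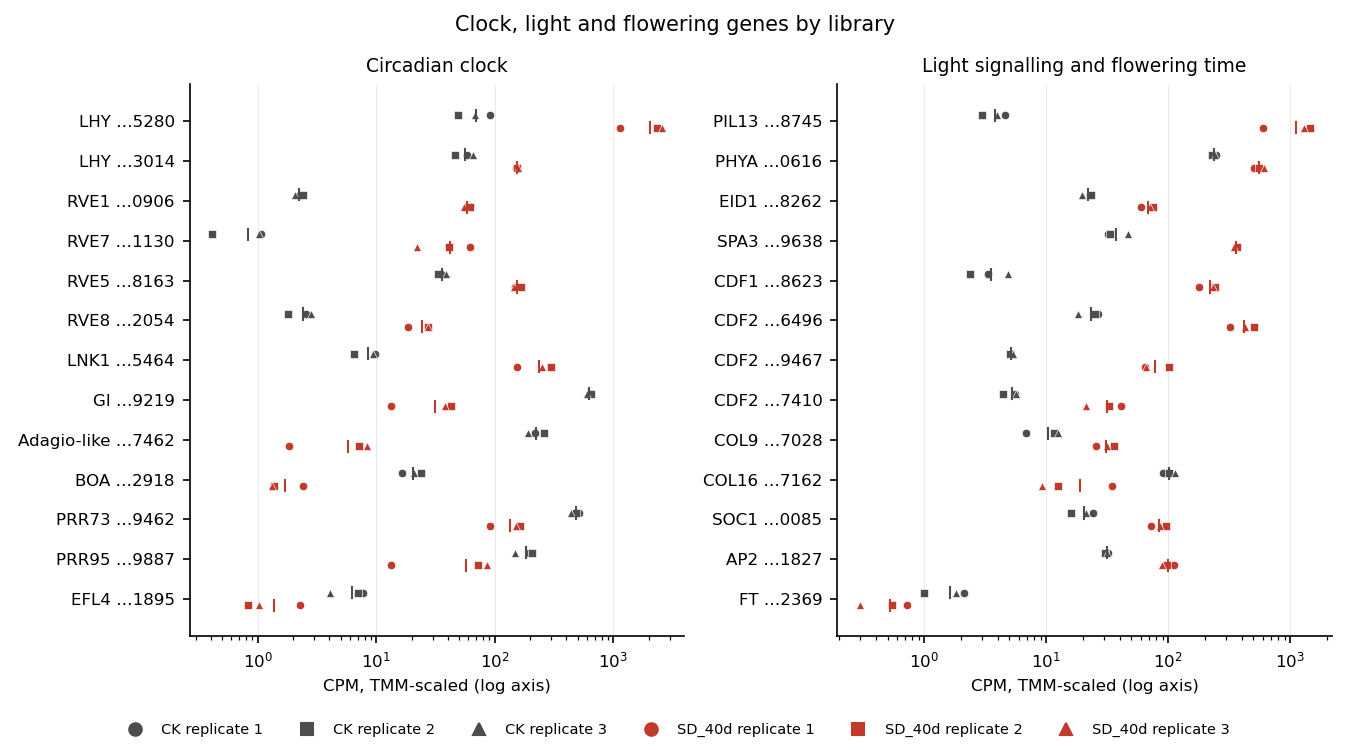
CPM of clock genes (left) and of light signalling and flowering-time genes (right) in the 3 CK libraries (grey) and the 3 SD_40d libraries (red), on a log axis; marker shape is the replicate, a vertical bar the group mean, and digits the end of the locus ID. LHY at LOC110025280 goes from 48.7 to 90.9 CPM in CK to 1150 to 2580 CPM in SD_40d, while GI goes from 601 to 644 CPM to 13.2 to 42.8 CPM.

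Light signalling had the highest share of rises of the 38 lists: of 47 genes tested, 28 rose (59.6%), 7 fell and 12 were not called, with a median of 0.80. The steepest rise of any named gene was PIL13 (LOC110028745; scaffold NW_018164962.1, 681624 to 684621), named for a rice phytochrome-interacting factor, a class of bHLH factors that phytochromes remove in light. It stood at 4.56, 2.96 and 3.93 CPM in CK and at 599, 1440 and 1310 CPM in SD_40d. Replicate 1 was the lowest of the short-day libraries but still far above CK, and PIL13 rose 292-fold (8.19 ± 0.45 log2, edgeR adjusted p = 1.35e-07). Of the photoreceptors themselves, phytochrome A (LOC110030616) read 247, 228 and 240 CPM in CK and 503, 553 and 615 CPM in SD_40d, a rise of 1.23 ± 0.11. Phytochrome C (LOC110036904) rose by 0.93 ± 0.12. Phytochrome B (LOC110022993) went from 54.5 to 74.3 CPM in CK to 74.4 to 78.7 CPM in SD_40d and was not called (0.25 ± 0.10, adjusted p = 0.0595). That result sat at the threshold, since the adjusted p was 0.0106 without CK replicate 3. The pair of cryptochrome-1 loci moved apart, one rising by 0.91 ± 0.20 (LOC110021478) and the other falling by 0.67 ± 0.14 (LOC110024994).

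COP1 and SPA proteins form a complex that marks light-response factors for destruction in darkness, and their loci did not all change in 1 direction. One SPA3 locus (LOC110029638) stood at 31.9, 33.1 and 47.2 CPM in CK and at 359, 369 and 344 CPM in SD_40d. The short-day values were even and far above CK, and the rise was 3.26 ± 0.20. COP1 itself (LOC110022462) rose by 1.18 ± 0.18, from 73.9 to 85.8 CPM in CK to 132 to 217 CPM. The other SPA3 loci (LOC110019238 and LOC110021271) rose by 1.10 ± 0.21 and 1.24 ± 0.22. SPA1 (LOC110021427) fell by 1.20 ± 0.14, from 167, 130 and 172 CPM to 55.3, 69.0 and 80.2 CPM, without overlap. EID1 (LOC110028262), an F-box protein of phytochrome A signalling, rose by 1.65 ± 0.13.

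Of 45 flowering-time genes tested, 17 rose (37.8%), 8 fell (17.8%) and 20 were not called, with a median of 0.33. The falls were the less stable part: 4 or 5 fell without SD_40d replicate 3, CK replicate 1 or CK replicate 3. Leading the rises were the cyclic DOF factors, repressors of CONSTANS and FT in Arabidopsis that the GIGANTEA and FKF1 pair removes. CDF1 (LOC110018623) went from 3.34, 2.39 and 4.88 CPM in CK to 179, 243 and 234 CPM in SD_40d. Every short-day library was far above CK, and the rise was 5.94 ± 0.33 (edgeR adjusted p = 1.35e-07). The 3 loci named CDF2 rose as well. The most abundant (LOC110026496) went from 26.8, 25.0 and 18.1 CPM to 321, 508 and 426 CPM, a change of 4.17 ± 0.25. Those at LOC110019467 and LOC110037410 rose by 3.92 ± 0.29 and 2.60 ± 0.24.

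The CONSTANS-like genes, zinc finger factors of the same family as the long-day regulator CONSTANS, did not move as one. COL9 (LOC110027028) rose from 6.85, 11.5 and 12.4 CPM to 25.7, 35.8 and 31.3 CPM, by 1.59 ± 0.24. COL16 (LOC110027162) fell from 91.1, 101 and 114 CPM to 34.8, 12.6 and 9.29 CPM, by 2.43 ± 0.39. Replicate 1 fell least, and without it the change was -3.25. A gene like rice GHD7 (LOC110024148), a long-day repressor of flowering in rice, rose by 1.65 ± 0.34.

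Among regulators nearer to the flower, SOC1 (LOC110020085), a MADS-box factor that promotes flowering in Arabidopsis, stood at 24.4, 16.1 and 21.2 CPM in CK and at 72.0, 95.8 and 85 CPM in SD_40d. The groups were well apart, and SOC1 rose by 2.03 ± 0.21 (edgeR adjusted p = 2e-05). MADS56 (LOC110033833), named for a rice relative of SOC1, rose by 0.97 ± 0.14, and MADS16 (LOC110024739) by 1.09 ± 0.20. Over the list of MADS-box and LEAFY genes, 19 of 53 annotated members passed the filter on low counts, and of those 6 rose and 13 were not called. An APETALA2 locus (LOC110021827) rose by 1.66 ± 0.15, from 30.4 to 32.4 CPM in CK to 88.3 to 112 CPM. Of the 29 SPL and AP2 genes tested, 8 rose and 1 fell. Once SD_40d replicate 1 was left out 7 fell, in a fit where falls over all genes numbered 4409 against 3257.

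FT (LOC110022369; scaffold NW_018164630.1, 318722 to 335466), named for the mobile signal of Arabidopsis leaves, was near the limit of detection. It had 26, 12 and 23 reads in CK and 10, 6 and 4 reads in SD_40d, and fell by 1.63 ± 0.48 (edgeR adjusted p = 0.0163). That call was lost without SD_40d replicate 3 (adjusted p = 0.0722) or CK replicate 1 (adjusted p = 0.0591).

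In the chloroplast, of 18 light-harvesting chlorophyll-binding protein genes tested, 14 fell (77.8%), none rose and 4 were not called, with a median of -0.94; 10 to 14 fell when 1 library was left out. Their summed level was 47900 to 61300 CPM in CK and 20500 to 23500 CPM in SD_40d. LHCA4 (LOC110028982), of the photosystem I antenna, read 5180, 5350 and 4420 CPM in CK and 784, 598 and 552 CPM in SD_40d. It fell 7.74-fold without overlap (-2.95 ± 0.21, edgeR adjusted p = 1.15e-06). LHCB3 (LOC110019911), of the photosystem II antenna, fell from 1940, 2690 and 1510 CPM to 284, 157 and 109 CPM, by 3.48 ± 0.39. The most abundant antenna genes, CAB40 at LOC110038717 and CAB37 (LOC110031670), fell by 1.07 ± 0.23 and 1.14 ± 0.20. The size of the change did not follow abundance. Less abundant loci also named CAB40, LOC110037707 and LOC110022745, fell by 2.41 ± 0.22 and 2.55 ± 0.20. LHCB5 (LOC110021597), also less abundant, fell by only 0.82 ± 0.23. CAB8 (LOC110023588) and CAP10A (LOC110021645) were not called (-0.28 ± 0.17 and -0.43 ± 0.20).

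Of 51 genes of the photosystems and electron transport, 17 fell, 3 rose and 31 were not called, with a median of -0.33. PSBQ2 (LOC110031928) and PSBO (LOC110039413), subunits of the oxygen-evolving complex, fell by 1.34 ± 0.19 and 1.05 ± 0.21. In chlorophyll synthesis, 4 of 32 genes rose and 8 fell, and with 1 library left out 2 to 6 rose and 4 to 9 fell. Protochlorophyllide reductase, POR1 (LOC110033798), which needs light to act, went from 1540, 1840 and 1460 CPM to 931, 699 and 666 CPM, a fall of 1.08 ± 0.15. Chlorophyllide a oxygenase, CAO (LOC110035673), which makes chlorophyll b, rose from 103, 77.2 and 96.4 CPM to 403, 462 and 439 CPM, by 2.24 ± 0.17.

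In the Calvin cycle, 3 of 25 genes rose, 4 fell and 18 were not called, with a median of 0.15. Rubisco activase, RCA (LOC110026894), rose by 1.29 ± 0.29, from 3840, 3490 and 3410 CPM to 7310, 9380 and 9570 CPM. Phosphoribulokinase (LOC110018947), which regenerates the substrate of Rubisco, rose by 0.87 ± 0.20. RBCS, given above as a leaf marker, fell by 1.01 ± 0.26.

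Of 68 starch and sucrose genes tested, 23 rose (33.8%), 12 fell (17.6%) and 33 were not called, with a median of 0.23; the falls numbered 5 to 7 without any one of SD_40d replicate 2, SD_40d replicate 3, CK replicate 2 or CK replicate 3. BAM3 (LOC110020311), a plastid beta-amylase that releases maltose from starch, was among the 10 steepest rises. It stood at 9.37, 17.6 and 18.6 CPM in CK and at 454, 964 and 734 CPM in SD_40d, 47.1-fold higher (5.56 ± 0.50 log2, edgeR adjusted p = 6.57e-06). A BAM1 locus (LOC110038896) rose by 2.82 ± 0.37, the debranching enzyme ISA2 (LOC110033285) by 1.94 ± 0.26 and the alpha-amylase AMY3 (LOC110033066) by 1.26 ± 0.19. The glucan water dikinase R1 (LOC110030854), which prepares the granule surface for breakdown, rose by 0.93 ± 0.24. On the synthesis side, starch synthase 4 (LOC110022663), which starts granules, rose from 23.5, 29.4 and 26.4 CPM to 154, 217 and 215 CPM, by 2.89 ± 0.25. GPT2 (LOC110032129), which carries glucose 6-phosphate into plastids, fell from 635, 695 and 632 CPM to 65.3, 131 and 146 CPM, by 2.52 ± 0.23. The sucrose transporter SUT1 (LOC110028929) rose by 1.92 ± 0.25. The invertase IVR1 (LOC110029333), which splits sucrose, rose by 3.31 ± 0.70 and by 4.39 without CK replicate 3.

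Of 25 CAM genes tested, 8 rose (32%), 1 fell (2 without SD_40d replicate 1) and 16 were not called, with a median of 0.29. Pyruvate phosphate dikinase, PPDK1 (LOC110023679), which rebuilds the carbon acceptor by day, read 2010, 2050 and 1730 CPM in CK and 3150, 8230 and 9740 CPM in SD_40d. It rose by 1.87 ± 0.41 with replicate 1 the lowest of the 3. The tonoplast dicarboxylate transporter TDT (LOC110038403), a carrier of malate at the vacuole, rose from 13.0, 17.4 and 20.1 CPM to 217, 99.0 and 106 CPM, by 3.06 ± 0.58. The NAD-malic enzyme gene MAOM (LOC110020669) and the carbonic anhydrase BCA2 (LOC110036198) rose by 1.01 ± 0.18 and 1.51 ± 0.22. PEP carboxylase, PPC2 (LOC110027447), the enzyme that fixes carbon at night, stood at 3560, 3880 and 4050 CPM in CK and at 424, 2420 and 3440 CPM in SD_40d. All 3 short-day values were below CK but far apart, and PPC2 was not called (-0.87 ± 0.64, adjusted p = 0.299). The 2 loci for its activating kinase went in opposite directions. The one at LOC110023763 fell by 1.60 ± 0.31. The one at LOC110038259 read 6.19, 10.4 and 15.4 CPM in CK and 114, 20.7 and 15.6 CPM in SD_40d, where replicate 1 alone was clearly higher. Its call (2.23 ± 0.69, adjusted p = 0.0214) was lost without SD_40d replicate 1 (0.73, adjusted p = 0.244), CK replicate 1 (adjusted p = 0.0769) or CK replicate 2 (adjusted p = 0.0656).

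**Figure D3:**
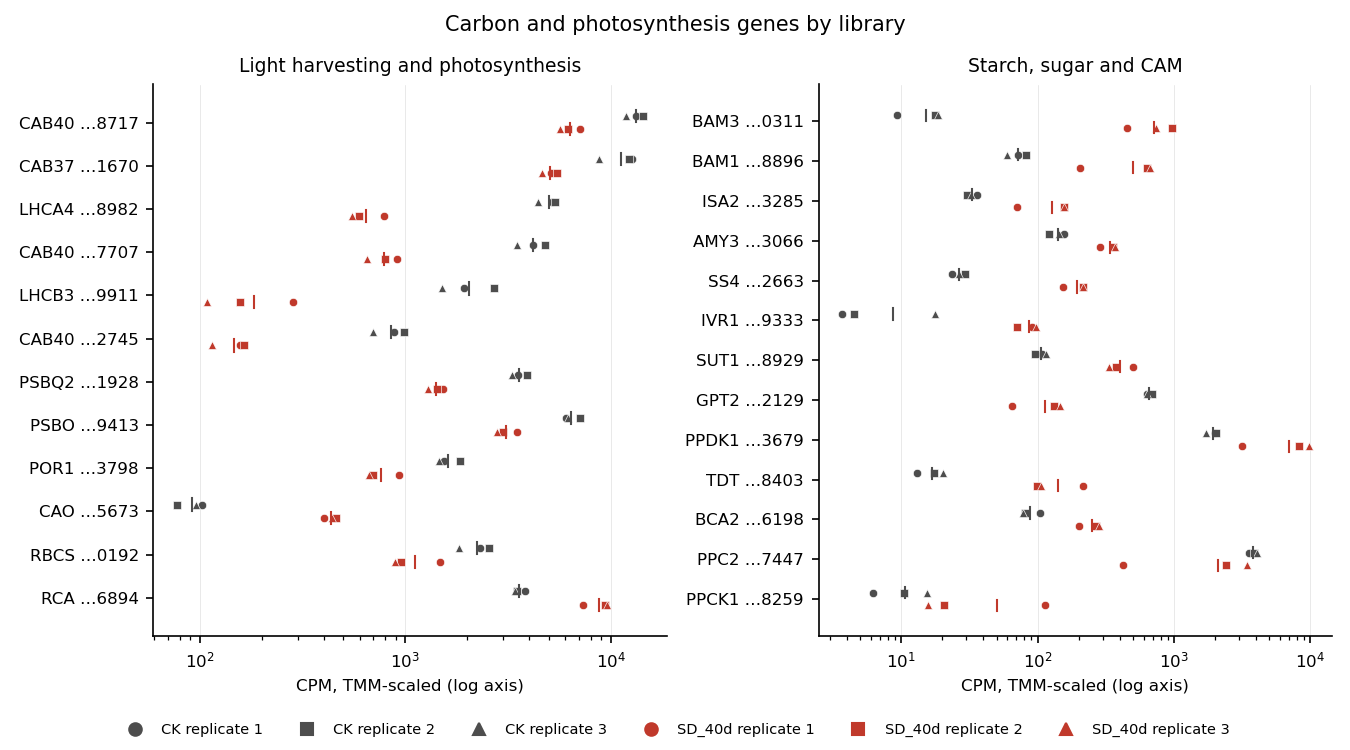
CPM of light-harvesting and photosynthesis genes (left) and of starch, sugar and CAM genes (right) in each CK (grey) and SD_40d (red) library, on a log axis; marker shape is the replicate and a vertical bar the group mean. The antenna gene LHCA4 goes from 4420 to 5350 CPM down to 552 to 784 CPM, BAM3 goes from 9.37 to 18.6 CPM up to 454 to 964 CPM, and PPC2 spreads from 424 to 3440 CPM in SD_40d.

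Of 92 histone and DNA replication genes tested, 51 fell (55.4%), 4 rose and 37 were not called, with a median of -0.84; 36 to 58 fell when 1 library was left out. PCNA1 (LOC110030415), the sliding clamp of DNA polymerase, read 33.1, 43.5 and 29.0 CPM in CK and 4.08, 1.01 and 0.959 CPM in SD_40d. All short-day libraries were far below CK, with replicate 1 the highest, and PCNA1 fell by 4.09 ± 0.54 (edgeR adjusted p = 0.000128), or by 5.18 without that replicate. The replicative helicase subunit MCM6 (LOC110031184) fell from 34.9, 43.7 and 34.2 CPM to 3.79, 3.57 and 3.61 CPM, by 3.36 ± 0.43. A histone H4 locus (LOC110032044) changed by -3.54 ± 0.68, by -5.02 without SD_40d replicate 1 and by -2.82 without CK replicate 2. Reads of near-identical histone copies may have been split between loci, so single histone values are uncertain.

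Of 166 cytosolic ribosome genes, 76 fell (45.8%), 3 rose and 87 were not called, with a median of -0.39. These were mostly small changes: RPS15 (LOC110021725), a small-subunit protein, was among the larger with a fall of 1.01 ± 0.13, from 86.9 to 111 CPM in CK to 45.0 to 50.6 CPM. The list's summed level was 14900 to 17500 CPM in CK and 11800 to 13300 CPM in SD_40d. The cell cycle list had a smaller share of falls, close to the 19.5% over all genes, but a similar median. Of 105 genes, 23 fell (21.9%), 10 rose (9.52%) and 72 were not called, with a median of -0.42, and the falls numbered 14 without SD_40d replicate 2. One of its rises was TPX2 (LOC110039343), a spindle protein, which read 1.47, 0.823 and 0.629 CPM in CK and 1.39, 21 and 28.7 CPM in SD_40d. It was high in replicates 2 and 3 alone (4.12 ± 0.80, 3.51 without replicate 3) and was not called by limma-voom (adjusted p = 0.117).

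Of 33 expansin and other wall-loosening genes, 17 fell (51.5%), 1 rose and 15 were not called, with a median of -1.33. The falls numbered 10 without SD_40d replicate 2, SD_40d replicate 3 or CK replicate 2. Expansin EXPA10 (LOC110018620), of a family that loosens walls of growing cells, went from 100, 162 and 29.3 CPM to 14.1, 7.22 and 2.43 CPM. It fell by 3.61 ± 0.63, or by 4.40 without SD_40d replicate 1. XTH23 (LOC110024608), an enzyme that cuts and rejoins xyloglucan, fell by 3.81 ± 0.97. XTH30 (LOC110022712) was the single riser, by 2.68 ± 0.55. Pectin enzymes fell in 23 of 72 cases (31.9%) and rose in 3; the falls numbered 38 without SD_40d replicate 1 and 13 to 15 without SD_40d replicate 2, SD_40d replicate 3 or CK replicate 2.

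**Figure D4:**
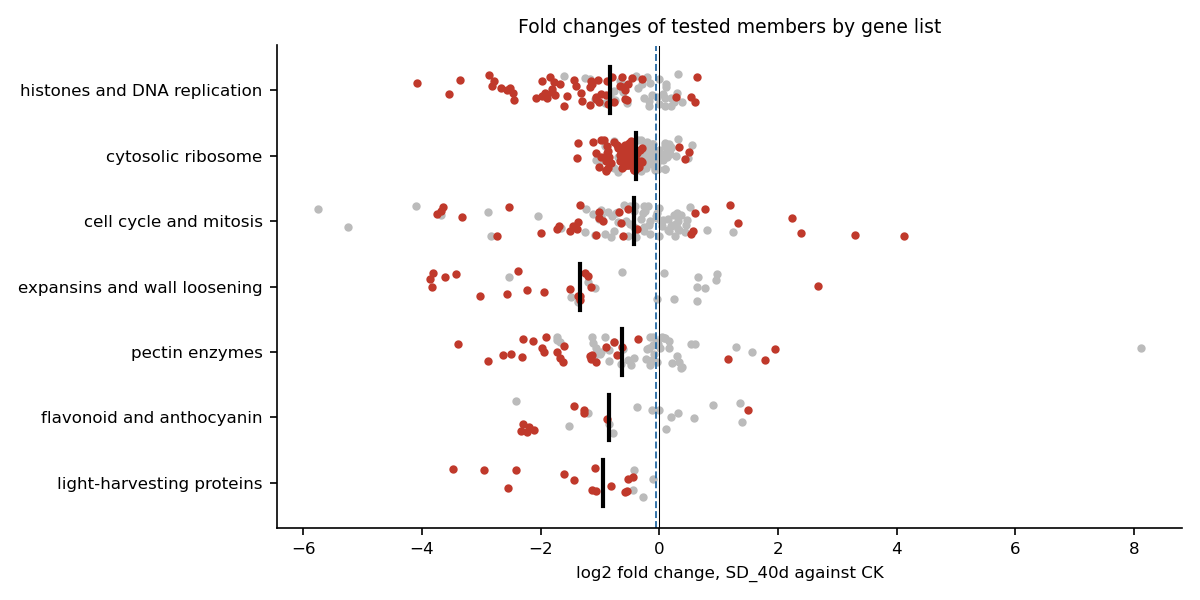
Log2 fold change, SD_40d against CK, of each tested member of 7 gene lists; red points were called, grey points were not, vertical spread is for legibility, a black bar is the list's median and the blue dashed line the median of all genes, -0.05. The medians lie at -0.84 for histones and DNA replication, -0.39 for the cytosolic ribosome and -1.33 for expansins.

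Heat shock genes gave some of the steepest rises, and these came from replicates 2 and 3. Of 56 tested, 17 rose (30.4%), 7 fell (12.5%) and 32 were not called, with a median of 0.29. For 9 of the 17 rises, replicate 1 was not above the CK range. The heat stress factor HSFB2B (LOC110027071) read 0.652, 1.48 and 0.629 CPM in CK and 4.74, 229 and 130 CPM in SD_40d. Replicate 1 was above CK but well under replicates 2 and 3, and the change was 7.03 ± 1.06 (edgeR adjusted p = 0.000313). The small mitochondrial chaperone HSP22 (LOC110021441) went from 4.40, 2.80 and 2.36 CPM to 4.96, 560 and 364 CPM, and HSP70 (LOC110026661), a general folding chaperone, from 33.3, 34.8 and 54.5 CPM to 28.7, 2210 and 1350 CPM. In replicate 1 these stood at or near the CK level. Their changes were 6.60 ± 1.25 and 4.87 ± 1.0.

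Further chaperone genes had the same pattern of libraries. HSP83A (LOC110027974), the HSP90 chaperone, rose by 4.10 ± 0.91, and CLPB1 (LOC110024978), which dissolves protein aggregates, by 3.41 ± 0.61. The co-chaperones BAG5 (LOC110035132), DNAJB13 (LOC110034667) and DnaJ-1 (LOC110017959) rose by 6.18 ± 1.09, 5.98 ± 0.82 and 5.93 ± 0.89. AFP3 (LOC110036077), of a family that restrains abscisic acid signalling, was the second steepest rise, from 0.815, 0.987 and 0.944 CPM to 1.24, 208 and 231 CPM (7.31 ± 1.33). Without SD_40d replicate 2 the changes were smaller but still called: 6.19 for HSFB2B, 5.85 for HSP22, 4.07 for HSP70, 3.12 for HSP83A, 2.50 for CLPB1, 5.10 for BAG5, 5.19 for DNAJB13 and 5.16 for DnaJ-1, and 11 members of the list rose and 3 fell. By limma-voom HSFB2B, HSP22, BAG5 and AFP3 were not called (adjusted p = 0.146, 0.133, 0.0577 and 0.326). The heat stress factors outside this pattern were HSFC1 (LOC110029688), which rose by 3.52 ± 0.37 from 4.61 to 6.03 CPM in CK to 23.2 to 77.5 CPM, and HSFA3 (LOC110031431), which fell by 2.34 ± 0.26 with 2.62 to 3.24 CPM in the short-day libraries.

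The secondary wall showed the same split. Of 67 cellulose and secondary wall genes, 17 rose (25.4%), 18 fell (26.9%) and 32 were not called, with a median of -0.24, and for 8 of the 17 rises replicate 1 was not above the CK range. CESA4 (LOC110022035), CESA7 (LOC110023735) and CESA9 (LOC110032300) carry the names of the rice cellulose synthases of the secondary wall. CESA9 stood at 24.4, 25.3 and 17.0 CPM in CK and at 18.2, 395 and 460 CPM in SD_40d. CESA7 stood at 4.32, 6.58 and 1.89 CPM in CK and at 2.55, 129 and 156 CPM in SD_40d. In both, replicate 1 lay within the CK range, so the groups overlapped, while the changes were 3.71 ± 0.75 and 4.49 ± 0.96. CESA4 rose by 2.40 ± 0.54. The laccase LAC22 (LOC110030239), of a family that polymerises lignin, was raised in all 3 libraries, from 7.58, 7.16 and 6.21 CPM to 34.1, 93.1 and 129 CPM, by 3.61 ± 0.40. NAC073 (LOC110019621) and NAC075 (LOC110029961), factors linked to secondary wall formation in Arabidopsis, rose by 3.72 ± 0.86 and 2.96 ± 0.36. By limma-voom CESA7 and NAC073 were not called (adjusted p = 0.186 and 0.122), and without CK replicate 2 the NAC073 change was 4.33. Falls of the list included CSLD2 (LOC110026391), a cellulose synthase-like protein of growing cells, from 412, 596 and 468 CPM to 63.3, 41.5 and 42.5 CPM, by 3.32 ± 0.56. The 16 annotated vascular marker genes, 15 of them tested, summed to 308 to 334 CPM in CK and to 343 to 395 CPM in SD_40d, with replicate 1 the highest. Of those tested, 3 rose and 1 fell, and the sum leaned on a few loci. VAD1 (LOC110028608) had means of 86.2 CPM in CK and 122 CPM in SD_40d, and PP2A9 (LOC110036195) of 24.3 and 52.1 CPM. The SEOB loci, named for sieve elements, had lower means in SD_40d (8.27 and 3.75 CPM, 23.6 and 12.3 CPM) and were not called. The part of vascular tissue in the wall changes was not tested.

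**Figure D5:**
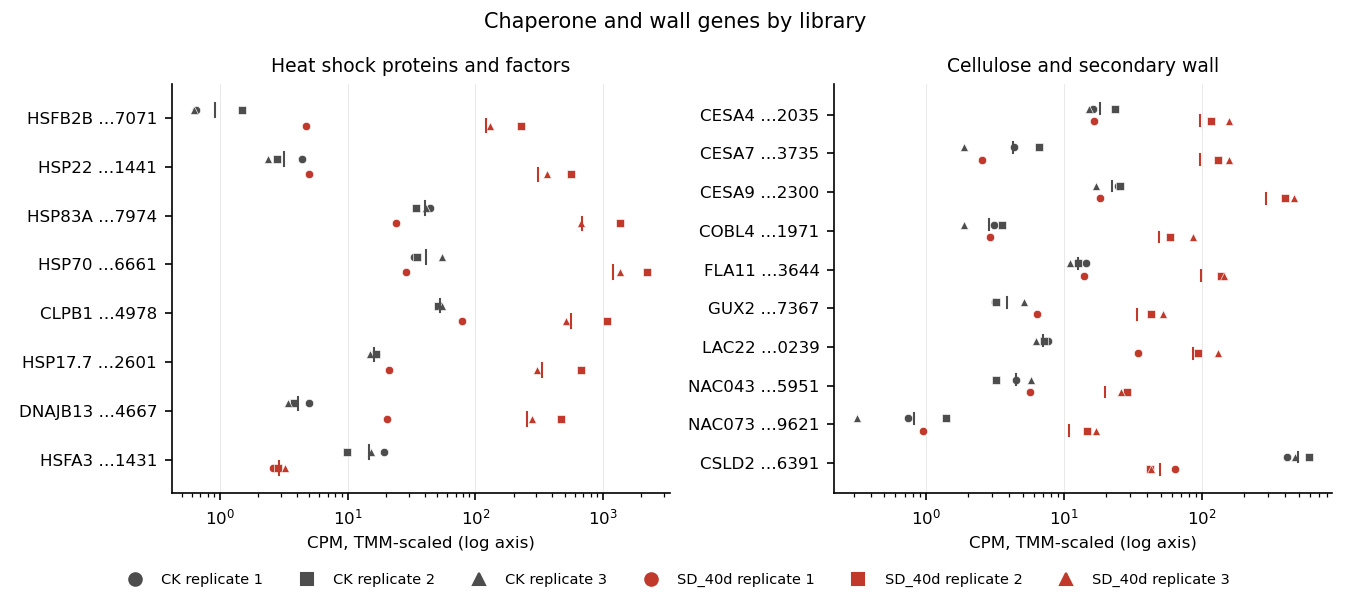
CPM of heat shock genes (left) and cellulose and secondary wall genes (right) on log axes, in each CK (grey) and SD_40d (red) library; marker shape is the replicate and a vertical bar the group mean. SD_40d replicate 1 (red circle) lies at or near the CK values for HSP70 (28.7 CPM) and CESA9 (18.2 CPM), whereas replicates 2 and 3 lie above.

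Among hormone lists, abscisic acid genes were mixed, with 7 of 39 rising and 6 falling, and 4 rising without SD_40d replicate 3 or CK replicate 1. PP2C06 (LOC110022579), a phosphatase of the class that blocks abscisic acid signalling, had the smallest adjusted p among the genes named here. It read 11.2, 13.7 and 14.9 CPM in CK and 223, 294 and 265 CPM in SD_40d, a rise of 4.30 ± 0.16 (edgeR adjusted p = 6.09e-09). NCED1 (LOC110033126), which makes the precursor of abscisic acid, fell by 1.37 ± 0.18, and CYP707A2 (LOC110030934), which breaks the hormone down, by 1.75 ± 0.45. For gibberellin, 2 of 28 genes rose and 9 fell (32.1%), and 5 fell without SD_40d replicate 2. GA2OX8 (LOC110022722), which inactivates gibberellin precursors, fell from 5.22, 4.69 and 4.01 CPM to 1.31, 0 and 0.0737 CPM. The change was -3.23 ± 0.82, and -6.56 without SD_40d replicate 1.

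Of 31 cytokinin genes, 3 rose and 9 fell (29.0%), with 5 falls without SD_40d replicate 3. LOG1 (LOC110036346), which releases active cytokinin, fell by 2.61 ± 0.25. Of 64 ethylene genes, 10 rose and 18 fell (28.1%), with a median of -0.57. Without SD_40d replicate 2, 9 fell, and without SD_40d replicate 3, CK replicate 1 or CK replicate 2, 5 or 6 rose. An ACC oxidase, MAO1B (LOC110018548), which makes ethylene, fell from 22.6, 37.6 and 41.8 CPM to 1.24, 0.366 and 2.14 CPM, by 4.72 ± 0.61, or by 5.34 without SD_40d replicate 3. Of 43 jasmonate genes, 8 rose and 16 fell (37.2%), with a median of -0.58, and 6 to 10 fell without SD_40d replicate 2, CK replicate 2 or CK replicate 3. Allene oxide synthase (LOC110032486), the first committed step to jasmonate, fell by 2.52 ± 0.53, while the lipoxygenase LOX1.5 (LOC110018528) rose by 2.30 ± 0.35. Auxin genes were close to background, with 14 of 75 rising (18.7%) and 11 falling (14.7%). Without SD_40d replicate 1, 22 fell, in a fit where falls over all genes numbered 4409 against 3257. IAA6 (LOC110021205), a repressor of auxin responses, fell by 1.86 ± 0.17.

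Genes named for cold and dehydration were more often lower than higher after 40 days in the cooler regime: of 44 tested, 7 rose, 13 fell (29.5%) and 24 were not called, with a median of -0.70. COR27 (LOC110028958), a cold-regulated clock gene in Arabidopsis, read 150, 124 and 206 CPM in CK and 19.2, 24.6 and 25.5 CPM in SD_40d. The groups were far apart and COR27 fell by 2.79 ± 0.19 (edgeR adjusted p = 5.6e-07). A raffinose synthase-like gene, RFS6 (LOC110039017), fell from 237, 176 and 346 CPM to 43.8, 46.7 and 52.8 CPM, by 2.40 ± 0.20, and LEA5 (LOC110030080), a protective late embryogenesis protein, by 1.88 ± 0.41. For 4 of the 7 rises replicate 1 was not above the CK range. One was galactinol synthase GOLS2 (LOC110030123), which read 6.66 to 9.45 CPM in CK and 7.29, 59.7 and 51 CPM in SD_40d (2.28 ± 0.58) and was not called by limma-voom (adjusted p = 0.0783). Another was the drought factor DREB2A (LOC110017890), which rose by 1.88 ± 0.43.

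Defence and flavonoid genes leaned lower. Of 180 defence genes, 50 fell (27.8%), 30 rose (16.7%) and 100 were not called, and 32 fell without SD_40d replicate 2. WRKY70 (LOC110036650), a salicylic acid response factor in Arabidopsis, fell from 287, 283 and 355 CPM to 13.3, 9.42 and 11.4 CPM, by 4.75 ± 0.35 (edgeR adjusted p = 1.27e-06). WRKY53 (LOC110022599) fell by 3.59 ± 0.67. Of 25 flavonoid and anthocyanin genes, 9 fell (36.0%), 1 rose and 15 were not called, with a median of -0.85. Anthocyanidin synthase, ANS (LOC110019740), fell from 346, 275 and 267 CPM to 84.1, 32.2 and 65.1 CPM, by 2.29 ± 0.31, and chalcone isomerase, CHI (LOC110026679), by 2.33 ± 0.35. In the wider phenylpropanoid and lignin list, 18 of 70 rose and 16 fell. Replicate 1 was not above the CK range for 8 of the 18, and 9 rose without SD_40d replicate 3. CSE (LOC110032551), a lignin pathway esterase, fell by 3.93 ± 0.48, or by 4.76 without SD_40d replicate 3.

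The steepest falls lay outside these lists in several cases. MYB306 (LOC110025017), named for a snapdragon MYB factor, read 35.3, 50.4 and 50.3 CPM in CK and 1.02, 0.640 and 0 CPM in SD_40d. It changed by -6.34 ± 1.16, with -7.27 without SD_40d replicate 1 and -5.73 without replicate 3. DJC76 (LOC110018084), a chloroplast J-domain protein, fell from 186, 165 and 167 CPM to 3.43, 3.84 and 5.90 CPM, by 5.29 ± 0.25 (edgeR adjusted p = 5.02e-08). The syntaxin SYP121 (LOC110039157), of vesicle fusion at the plasma membrane, fell by 5.07 ± 0.62, and by 5.94 without SD_40d replicate 3. A phosphodiesterase gene (PDE1, LOC110038635) and the cytochrome P450 CYP71A25 (LOC110023992) fell by 5.49 ± 0.40 and 4.42 ± 0.27. The glycerophosphodiesterase GDPD1 (LOC110037507) fell by 4.93 ± 1.17, and by 4.28 without CK replicate 2.

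The direct comparison of photoperiods used LD_40d, which had the same age and temperatures as SD_40d with 16 h of light. Its comparison with CK shares the CK libraries. Between SD_40d and LD_40d, 77 of 16700 genes were called by edgeR (0.461%), 27 higher and 50 lower in SD_40d. That count ranged from 0 to 2037 when 1 library was left out, with 2037 without SD_40d replicate 1, 6 without SD_40d replicate 3, 19 without LD_40d replicate 2, 123 without LD_40d replicate 3 and 0 without SD_40d replicate 2 or LD_40d replicate 1, where 1589 and 2039 genes had an unadjusted p under 0.05. DESeq2 called 614 with all libraries. SOC1 was one of the 27, but of all loci with over 50 reads it was the 1 whose deposited counts in LD_40d and SD_20d did not give its deposited FPKM. They gave it with the same-numbered library totals of the other of these groups, so its values appear exchanged between LD_40d and SD_20d. The place of SOC1 among the 27 is thus unsafe, and its difference from those groups is not given. PIL13 was among the 77: it rose by 8.19 in SD_40d and by 6.19 in LD_40d against CK, and the direct difference was 2.0 ± 0.33 (adjusted p = 0.0272). GA2OX8 fell by 3.23 against CK in SD_40d (adjusted p of the direct difference between photoperiods 0.0299). In LD_40d it stood 1.51 ± 0.66 above CK but was not called there (edgeR adjusted p = 0.111). By contrast, GIGANTEA was -4.33 from CK in SD_40d and -4.42 in LD_40d (adjusted p of the direct difference 0.920), and CDF1 was 5.94 and 5.73 above CK (0.722). BAM3 was 5.56 and 6.57 above CK (0.258). With a count of calls that unstable, a gene not called is not shown to be equal in both photoperiods. Nor is any call between the photoperiods firm, here or in the next paragraph. Each was lost without SD_40d replicate 2, without LD_40d replicate 1 and with the 6 libraries alone.

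The genes with the smallest p between the photoperiods among those called against CK were mostly cases in which LD_40d lay further from CK. CAB37 was -1.14 from CK in SD_40d and -2.73 in LD_40d (adjusted p of the direct difference 0.0147), and POR1 -1.08 and -2.10 (0.0147). REVEILLE 7 was 5.63 above CK in SD_40d and 8.54 in LD_40d (0.0147), and the kinase CIPK21 (LOC110038694), of calcium signalling, 1.97 and 3.12 (0.0147). CYP93G1 (LOC110019181), of flavone synthesis, was 0.86 and 2.98 above CK (0.0144), and its own call against CK was lost without SD_40d replicate 1 (0.40, adjusted p = 0.0656) or CK replicate 2 (adjusted p = 0.0514). The auxin carrier LAX2 (LOC110022504) was the exception, 0.98 above CK in SD_40d and -0.38 from it in LD_40d (0.0234). The 3 light-harvesting genes called between photoperiods were all higher in SD_40d than in LD_40d.

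SD_20d, sampled after 20 days in the same short days and temperatures, differed from SD_40d in 6801 genes (40.7%), 3350 of them higher at 40 days. Of the 31 clock genes, 16 were higher and 2 lower at 40 than at 20 days, among them LHY at LOC110025280 (2.71 above CK at 20 days and 4.87 at 40 days, edgeR adjusted p of the direct difference 0.000733). BAM3 was 2.18 above CK at 20 days and 5.56 at 40 days (0.000696). RCA was -0.58 from CK at 20 days and 1.29 above it at 40 days (0.000799). PCNA1 was -0.54 from CK at 20 days and -4.09 at 40 days (0.000734), and of the 92 histone and DNA replication genes 67 were lower at 40 than at 20 days. WRKY70 and COR27 stood near their 40-day values already at 20 days (-5.05 and -2.57 from CK, with adjusted p of 0.490 and 0.339 for the differences from 40 days).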

How the data were processed

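The authors deposited 1 table of 21144 loci; per the file headers it holds read counts per gene, whole numbers that were used as deposited. Its FPKM values, per the file headers scaled by the authors to gene length and library, were not tested; gene positions came from the same table. Of tools, the submitters' processing notes list HISAT2 2.0.5, cutadapt 1.15, DESeq 1.30.0 and HTSeq 0.9.1, with no roles; genome build and strand setting are not given in the sources used here. Reads of P. amabilis were counted on loci of P. equestris. Without a stated strand setting, reads of overlapping genes cannot be told apart.

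One quasi-likelihood model (edgeR 4.0.16, run under R 4.3.3) covered all 15 libraries, with 1 mean for each of 5 groups, TMM scaling and no covariate, for the 16700 genes that edgeR's own expression filter kept. Benjamini-Hochberg adjustment ran over those genes, and a gene was called when its adjusted p was below 0.05. The value after ± is a standard error, obtained by dividing the absolute log2 fold change by the square root of F. The fit was tested on simulated data. The floors given for genes without reads cover counting error only, while the standard errors also hold the spread between libraries. The log2 CPM used for library comparisons had a prior count of 2.

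The 38 gene lists were found by words in the gene descriptions. Named genes were the 10 steepest rises and falls with a mean log2 CPM of at least 2 and no overlap between groups, uninformative descriptions aside, the called list members with the smallest adjusted p, examples of the clock, flowering-time and CAM lists, and the smallest p against LD_40d. Other list members were named as examples after their values were seen. The comparison and lists were chosen with earlier results of these data known. Alternatives were RLE and upper-quartile scaling, DESeq2 1.42.0, limma-voom (limma 3.58.1), other filters, a 2-fold minimum, the 6 libraries alone, a replicate block and leaving out each library. The deposited FPKM of SOC1 was 5.3 to 10.2% above that computed from its counts in LD_40d, and 5.0 to 9.3% below it in SD_20d. With the same-numbered library total of the other of these groups the mismatch was 0.0% in each library.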

Additional observations from a re-analysis of the deposited data

How the results depend on the processing

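The count of genes called between SD_40d and CK, 6399, was 4525 to 7810 over the alternatives other than a 2-fold minimum, which left 2514 with 37.3% of them rises against 49.1%. Leaving out 1 library gave 4529 to 7810, the highest without SD_40d replicate 1, where the share of rises was 43.5%. Between SD_40d and LD_40d, 77 were called, against 614 by DESeq2, 45 with the replicate block, 0 with the 6 libraries alone (1614 at an unadjusted p under 0.05) and 0 to 2037 when 1 library was left out. Between SD_40d and SD_20d, 6801 were called, 2936 with the 2-fold minimum and 4617 to 8174 with 1 library left out. Same-numbered libraries of SD_40d and CK had deviations from their group means correlated at -0.122, -0.122 and 0.110, so numbers were not taken as pairs, and the replicate block gave 6069 calls between SD_40d and CK and 6434 between SD_40d and SD_20d. Of the 38 lists, 16 had more rises than falls, and 12 to 18 did under the alternatives. Of 133 called genes named here, 130 kept their call with each library left out in turn, and 121 under all alternatives where they could be tested. With the replicate block PPCK1 (LOC110038259) was not called (1.81, adjusted p = 0.0571), and it changed no other call of a named gene. The cause of these changes was not tested. With 3 libraries a group and SD_40d replicate 1 apart, small changes may be missed, and genes with few reads have no firm level.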

Other observations

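Senescence and NAC genes rose more often than they fell: of 74 tested, 27 rose (36.5%), 8 fell (10.8%) and 39 were not called, with a median of 0.22. For 10 of the 27 rises SD_40d replicate 1 was not above the CK range. OSA15 (LOC110035712), a senescence-associated chloroplast protein, read 51.4, 48.9 and 45.2 CPM in CK and 118, 160 and 158 CPM in SD_40d, and rose by 1.58 ± 0.16. ATG11 (LOC110022906), of autophagy, rose by 1.07 ± 0.15, while NAC068 (LOC110037900) fell by 2.90 ± 0.50, from 191 to 290 CPM in CK to 15.1 to 57.7 CPM, and by 3.68 without SD_40d replicate 3. In the cuticle list, 14 of 49 rose and 13 fell. GL1-4 (LOC110021075), a wax alkane enzyme, rose from 43.9, 73.2 and 42.2 CPM to 399, 493 and 363 CPM, by 2.98 ± 0.23, and the wax elongase CUT1 (LOC110027349) by 1.06 ± 0.20. Among 68 nitrogen genes, 10 rose and 11 fell. The ammonium carrier AMT1-1 (LOC110038906) rose by 2.01 ± 0.23, and asparagine synthetase (LOC110024168) fell from 538, 314 and 367 CPM to 41.2, 36.0 and 45.8 CPM, by 3.31 ± 0.59. The nitrate carrier partner NAR2.1 (LOC110018888) fell by 2.63 ± 0.27.

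Of 64 glutathione and antioxidant genes, 16 fell (25.0%) and 6 rose, 42 were not called and the median was -0.32. Catalase CAT2 (LOC110018565), which removes hydrogen peroxide of photorespiration, fell from 9780, 10700 and 11400 CPM to 4680, 4080 and 4940 CPM, by 1.22 ± 0.21, and GSTU19 (LOC110035233) by 2.20 ± 0.29. The aquaporins split, with 5 of 19 rising and 6 falling. PIP2-7 (LOC110027680), of the plasma membrane, rose by 1.32 ± 0.22, and TIP1-1 (LOC110034844), of the vacuole membrane, fell by 1.38 ± 0.29. Of 12 meristem markers tested (30 annotated), 5 rose and 2 fell. KNAP3 (LOC110024018), a KNOX gene of a class that is not confined to meristems, rose from 94.2, 101 and 102 CPM to 161, 240 and 231 CPM. NAC098 (LOC110038246), an organ boundary gene named for CUP-SHAPED COTYLEDON 2, went from 1.47, 0.494 and 1.34 CPM to 3.06, 17.6 and 15.7 CPM and rose by 3.44 ± 0.66. The 26 annotated guard cell and stomatal lineage genes summed to 160 to 199 CPM in CK and 140 to 150 CPM in SD_40d. The bulk of that sum was EPFL9 (LOC110018723), at 123 to 155 CPM in CK and 107 to 118 CPM in SD_40d, which was not called (edgeR adjusted p = 0.355). The sum is thus no measure of guard cells. Of the 19 tested, 2 were called, both higher. Retroelement and viral genes, 74 annotated and 8 tested, summed over all annotated to 112 to 133 CPM in CK and 163 to 177 CPM in SD_40d. Most of this was 1 locus, RE2 (LOC110019402), at 74.2 to 88.2 CPM in CK and 119 to 136 CPM in SD_40d. Among 38 sugar transporters, 7 rose and 9 fell.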
